A study of Mus musculus with 23 samples.

Results

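Lipoprotein lipase, the proteins that bring fatty acids into a cell, the proteins that bind them inside it and the enzyme that activates them were followed across mouse livers with and without Cpt1a. The 10 genes were Lpl, Cd36, Slc27a1, Slc27a2, Slc27a4, Fabp1, Fabp2, Fabp4, Fabp5 and Acsl1. They were chosen by name as genes of one route, with earlier results of these data known. All 10 were found among the 26522 genes listed in either of the deposited tables, and all 10 passed the filter on low counts in every comparison. Bulk liver RNA had been sequenced from 12 females (6 control, 6 LKO) and 11 males (5 control, 6 LKO). By the series title, LKO livers are those in which Cpt1a was ablated. The 4 groups share the B100 background, a diet labelled WD given for 16 weeks and the fed state at necropsy. The labels spell out neither B100 nor WD, and they name no Cre driver and no age.

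Long-chain fatty acids reach a liver cell free in the blood or released from lipoprotein triglyceride by lipoprotein lipase. CD36 and the fatty acid transport proteins of the SLC27 family promote their entry, and small cytosolic fatty acid binding proteins carry them. Before they can be oxidised or esterified they are joined to coenzyme A by acyl-CoA synthetases such as ACSL1, and CPT1A then commits the acyl-CoA to import into mitochondria. In a healthy adult liver FABP1 is the main binding protein, whereas LPL and FABP4 are better known from adipose tissue, muscle and macrophages and FABP2 from the intestine. Several of the genes are targets of the PPAR nuclear receptors, which bind DNA with RXR at direct repeats of the half-site AGGTCA.

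The promoters of Fabp1 and Fabp2 are shown because these binding proteins were both lower in control females than in control males and varied together from liver to liver, as described below. Their covariation passed the test over all 23 livers and not within either sex alone. Each sequence is the 250 bases before the annotated start, on the plus strand, from RefSeq on GRCm38.p6, and capitals mark matches, on either strand, to the half-site AGGTCA or to a direct repeat of PPAR and RXR type, which is AGGNCA, any base, then AGGTCA.
Fabp1, chr6:71199629-71199878: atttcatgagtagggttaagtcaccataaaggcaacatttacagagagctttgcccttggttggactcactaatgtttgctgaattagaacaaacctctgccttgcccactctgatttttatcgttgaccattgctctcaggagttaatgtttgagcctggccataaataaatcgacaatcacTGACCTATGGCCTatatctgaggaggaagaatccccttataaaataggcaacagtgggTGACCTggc
Fabp2, chr3:122894822-122895071: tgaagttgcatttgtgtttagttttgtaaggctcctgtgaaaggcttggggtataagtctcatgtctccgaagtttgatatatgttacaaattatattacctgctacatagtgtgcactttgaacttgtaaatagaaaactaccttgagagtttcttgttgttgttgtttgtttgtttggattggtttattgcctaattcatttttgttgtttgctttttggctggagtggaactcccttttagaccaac
The Fabp1 window held this repeat on the minus strand, 67 to 55 bases before the start, which 27 of 32851 RefSeq windows of this length hold (0.082 percent). Its 2 half-sites, which 14.024 percent of windows hold in some number, lay 67 to 62 bases before the start, inside the repeat, and 9 to 4 bases before it. The letters TATAAA lay 30 to 25 bases before the start, as in 12.368 percent of windows. The Fabp2 window held neither AGGTCA nor the repeat. Of the other members, the windows of Slc27a2 and Cd36 held 1 half-site each. In all, 7 of the 10 members had an entry in the RefSeq table. A match is a run of letters and was not tested as a binding site.

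The livers were sequenced to similar depth, with total counts from 14224665 to 19626662 per library. Levels are given as CPM, each count over the total of its library, scaled by the TMM factors of edgeR. All 10 hepatocyte markers were abundant, with a summed level of 58305 to 115909 CPM per liver. No pair of libraries held identical counts. Control male replicate 4 stood somewhat apart: its total was the lowest, and 18232 genes had counts there, fewer than in any other library. It correlated least with its group (mean r of 0.969, against 0.977 to 0.986 for every other library) and was the lowest control male for 4 of the 10 members. Printed fold changes of the members that turned in sign or moved by over 1.5 times without it are given both ways. Cpt1a itself checked the labels. It was 387 ± 59.1 CPM in control females and 75.8 ± 8.86 CPM in LKO females (SD, n = 6 each), or 19.6 percent of control. Among males, controls had 357 ± 50.3 CPM (SD, n = 5) and LKO livers 63.0 ± 20.2 CPM (SD, n = 6), or 17.7 percent of control. No LKO liver overlapped the controls of its sex (two-sided exact permutation p = 0.00216 in each sex).

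Within a liver the members differed by orders of magnitude. They were ordered on the deposited FPKM scale, which divides by a gene length given with the data. That length was 553 bases for Fabp1, much less than its genomic span, and 4489 bases for Fabp4, its whole genomic span. The order and fold ranges below depend on these lengths, so levels of different genes are comparable only with that limit. Fabp1 was highest in all 4 groups, with 10125 ± 1603 FPKM in control males (SD, n = 5) and 6583 ± 1707 FPKM in control females (SD, n = 6). Slc27a2, a transport protein that also activates very long-chain fatty acids, followed at 314 ± 32.6 FPKM in control males, and Fabp2 at 231 ± 28.1 FPKM. Acsl1 came next at 51.6 ± 11.1 FPKM. The ranges of these 4 genes did not overlap in control males, control females or LKO females. In LKO males those of Slc27a2 and Fabp2 did.

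Below them, Cd36 was 29.3 ± 12.4 FPKM in control males, Slc27a4 14.03 ± 1.87, Fabp5 9.50 ± 2.12, Fabp4 5.45 ± 2.12, Lpl 4.22 ± 1.78 and Slc27a1 2.02 ± 0.67 FPKM, and each of these overlapped its neighbour in that order. The lowest member of control females by FPKM was Fabp4, at 2.56 ± 0.52 FPKM, a value that depends on its deposited length. In FPKM, Fabp1 exceeded the lowest member 5002-fold in control males, 4018-fold in LKO males, 2571-fold in control females and 2000.2-fold in LKO females. The female values set Fabp1 against Fabp4 and so depend on the deposited lengths of both. In LKO females Lpl, at 6.37 ± 0.54 FPKM, no longer overlapped Slc27a1, at 4.62 ± 0.89 FPKM, as it did in control females.

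**Figure D1:**
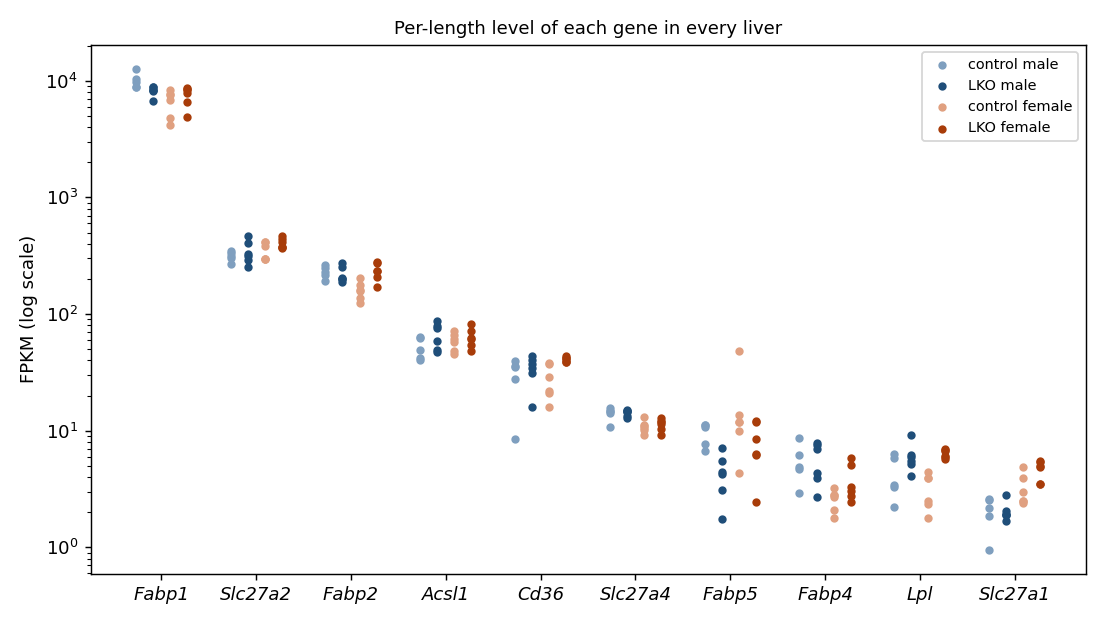
Deposited FPKM of each gene in every liver on a log axis, with 1 point per liver and colours for the 4 groups, genes ordered by their mean in control males. Fabp1 lies above every other gene in all groups, and Lpl, Fabp4 and Slc27a1 lie near the bottom.

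In females, the loss of Cpt1a went with a higher level of Lpl, the only one of the 10 genes that passed the test there. All genes were fitted together with the quasi-likelihood test of edgeR and a gene was called at a Benjamini-Hochberg adjusted p under 0.05. By that rule 1 of 10 members was called, against 1.42 percent of the 13684 genes tested (194 genes), or 0.928 percent called higher. At an unadjusted p under 0.05 there were 6 of 10 members, 5 higher and 1 lower, against 15.6 percent of all genes. In 9 of 10 members the log2 fold change was above 0, with a median of 0.37 over the members and of 0.0051 over all genes tested. In males, none of the 10 was called, against 0.00724 percent of 13805 genes, which was Cpt1a alone, and none was free of overlap between the groups, against 1.74 percent. At an unadjusted p under 0.05 there were 2 of 10 members, both lower, against 12.5 percent of all genes, and the members' median log2 fold change was 0.019. The DESeq2 Wald test called 3 members in females, against 3.64 percent of genes, and 1 in males, against 1.27 percent. The authors' deposited adjusted p-values, given below, nearly equal those of DESeq2, so they are not a second test. Both put 554 genes under 0.05 in females, and in males 107 deposited against 106 here. The members share their livers, so the counts of members are not independent observations. The members were also chosen with earlier results of these data known.

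**Figure D2:**
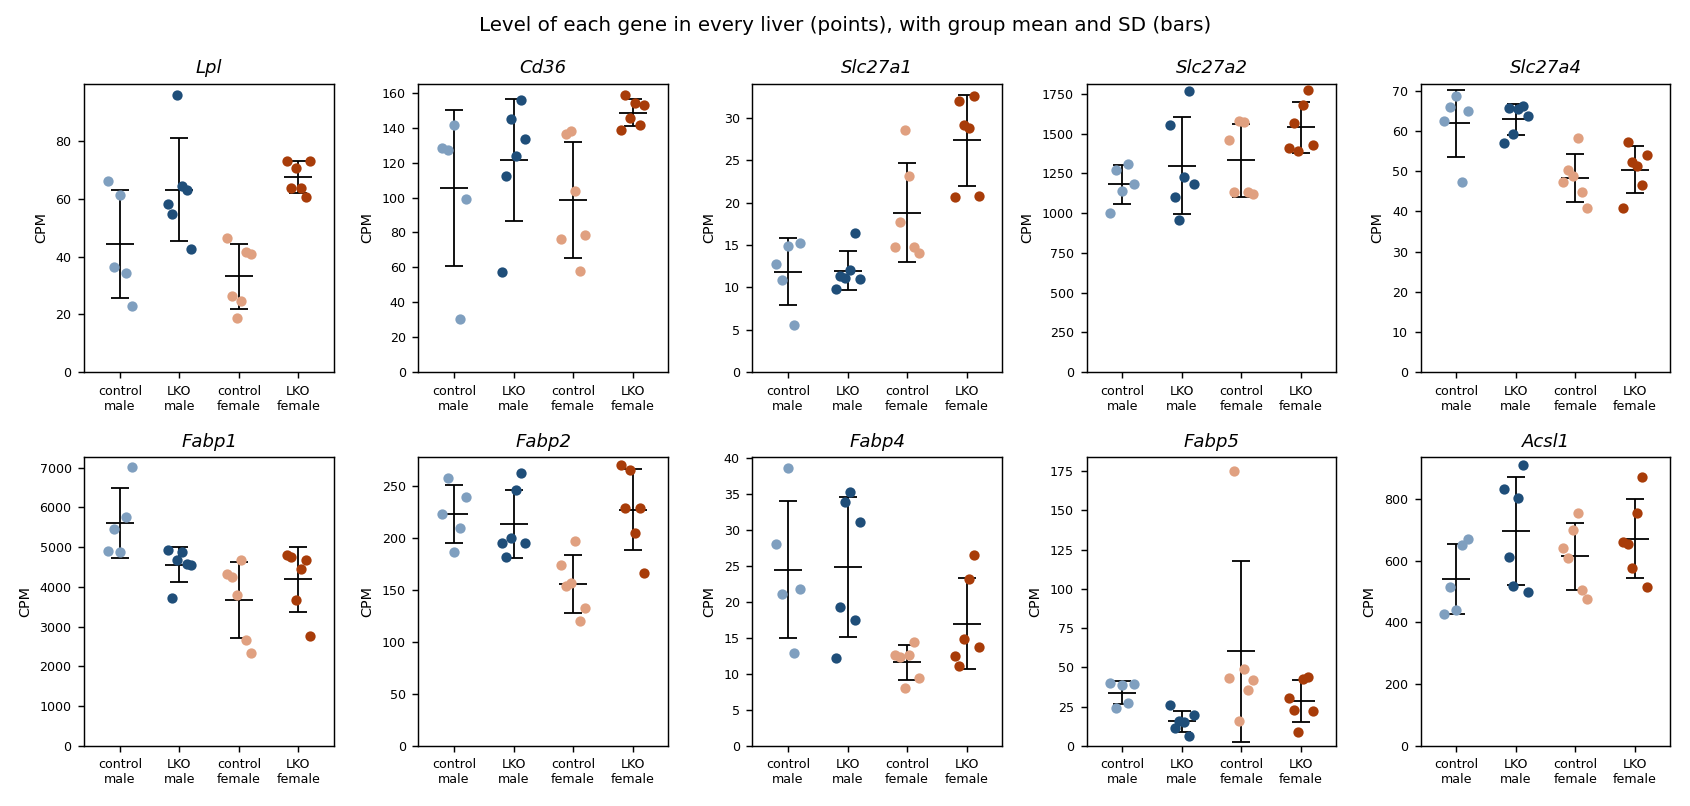
CPM of each gene in every liver, with 1 panel per gene, 1 point per liver and bars for the group mean and SD (n = 5 control males and 6 in each other group). The LKO females lie above every control female for Lpl and Cd36, and 1 control female lies far above all other livers for Fabp5.

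Lpl encodes lipoprotein lipase, which hydrolyses the triglyceride of lipoproteins at the vessel wall (ENSMUSG00000015568, chromosome 8, 69333143 to 69360100, plus strand, mm39). In the 6 LKO females it ran from 60.7 to 73.2 CPM with a median of 67.3 CPM. In the 6 control females it ran from 18.8 to 46.4 CPM with a median of 33.7 CPM. Every LKO female lay above every control female, and the LKO livers were also the more alike, with a coefficient of variation of 8.05 percent against 34.0 percent in controls. Members whose LKO values lay wholly above the controls numbered 2 of 10, Lpl and Cd36, against 1.02 percent of all genes. The mean of Lpl was 67.6 ± 5.44 CPM against 33.2 ± 11.3 CPM (SD, n = 6 each), or 204 percent of control. On the log2 scale the difference was 1.03 (SE 0.18, edgeR adjusted p = 0.0134), and the call held under all 22 alternatives. The authors' deposited table gave 1.02 with an adjusted p of 1.71e-05, nearly that of DESeq2.

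In males Lpl was 66.3, 36.3, 61.5, 34.3 and 22.99 CPM in the 5 controls and ran from 42.8 to 96.1 CPM with a median of 60.6 CPM in the 6 LKO livers. The groups overlapped, and 1 LKO male lay above all controls. The log2 fold change was 0.51 (SE 0.26, edgeR adjusted p = 0.453). The difference between the effects in females and males was 0.51 (SE 0.33, edgeR adjusted p = 0.543), so a difference between the sexes was not shown. Over both sexes together Lpl was higher by 0.77 (SE 0.17, edgeR adjusted p = 0.0354), the only member called in that fit, against 0.545 percent of genes. At an unadjusted p under 0.05 there were 4 of 10 members, against 14.8 percent. That call was lost in 12 of 23 fits that left out 1 liver, with adjusted p up to 0.071.

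Cell types other than hepatocytes express Lpl, and in bulk RNA more cells of a type and more RNA per cell cannot be told apart. The summed level of 12 macrophage and Kupffer cell markers was 816 to 1235 CPM in LKO females and 630 to 1176 CPM in control females. The log2 fold change in females was above 0 for 6 of the 12 and below 0 for 6, with a median of 0.011. Of the 12, 2 were called higher there, against 0.928 percent of all genes: Gpnmb, by 3.22 on the log2 scale (edgeR adjusted p = 0.00256), and Trem2, by 1.32 (adjusted p = 0.00314), both known from lipid-laden macrophages. None was called in males. Gpnmb was near the floor in control females, with 8 to 34 counts per liver. Its mean was 1.19 CPM there, 11.2 CPM in LKO females and 16.1 CPM in control males, where it ran from 0.56 to 37.7 CPM. The mean of Trem2 was 3.21, 8.05 and 8.20 CPM in the same groups. Of 6 adipocyte markers tested in females, 3 were above 0 in log2 fold change and 3 below, with 2 higher and 2 lower at an unadjusted p under 0.05. Of the 6, 1 was called higher, against 0.928 percent of all genes: Cidec, a lipid droplet protein, by 2.01 (edgeR adjusted p = 0.00691). The summed list was 665 to 1319 CPM in LKO and 1139 to 1699 CPM in control females. Most of that sum was Car3, with 10980 to 47304 counts per liver, against at most 5307 for Cidec, the next. Adipoq and Lep were at 0 counts in 13 and 20 of 23 livers, with at most 26 and 3 counts, and Plin1 and Retn had at most 31 and 14. The other markers of that list, Cfd, Lipe, Adrb3 and Slc2a4, reached 786, 959, 173 and 164 counts. Endothelial markers summed to 238 to 305 CPM in LKO and 256 to 332 CPM in control females, with none called. The 10 stellate cell and fibroblast markers were all above 0 in log2 fold change in females, with a median of 0.31, 5 at an unadjusted p under 0.05 and none called. They summed to 228 to 424 CPM in LKO and 244 to 304 CPM in control females. The 10 hepatocyte markers were all below 0, with a median of -0.25, 2 at an unadjusted p under 0.05 and none called, and summed to 71238 to 103814 CPM in LKO and 94331 to 115909 CPM in control females. The part of these cells in the level of Lpl was not tested.

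**Figure D3:**
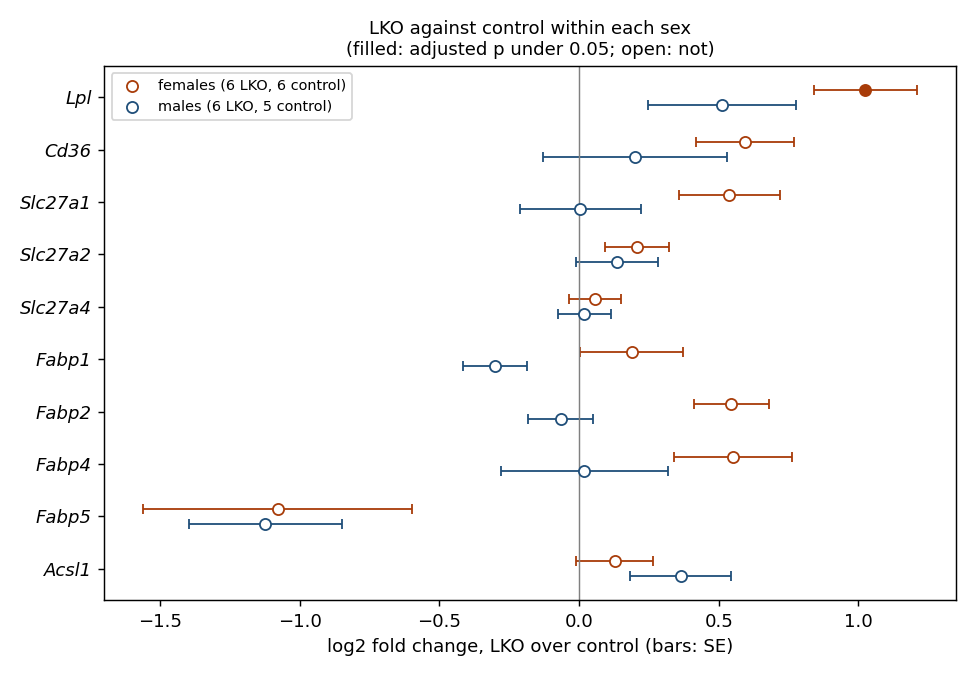
Log2 fold change of LKO over control for each gene in females and males, with bars of 1 SE derived from the edgeR F statistic and filled points for an adjusted p under 0.05. Lpl in females (1.03) is the only filled point, and Fabp5 lies near -1.1 in both sexes with wide bars.

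Cd36, a membrane glycoprotein that promotes long-chain fatty acid uptake, showed the second group separation in females (ENSMUSG00000002944, chromosome 5, 17986688 to 18093799, minus strand). The 6 LKO females ran from 139 to 159 CPM with a median of 149 CPM, and the 6 control females from 58.0 to 138 CPM with a median of 91.2 CPM. The groups did not overlap, but the highest control, 138.1 CPM, lay just under the lowest LKO liver, 138.8 CPM. Spread was again smaller with LKO, at a coefficient of variation of 5.24 percent against 33.8 percent. Its log2 fold change, 0.59 (SE 0.18, edgeR adjusted p = 0.111), did not pass. The adjusted p lay between 0.034 and 0.325 over the 22 alternatives and was under 0.05 in 3 of them. The authors' deposited table gave 0.59 with an adjusted p of 0.0339, nearly that of DESeq2, which is already among these 3.

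In males Cd36 was 128, 128, 142, 30.1 and 99.2 CPM in the 5 controls, and the LKO livers ran from 57.6 to 156 CPM with a median of 129 CPM. The value of 30.1 CPM was that of control male replicate 4. With that liver the log2 fold change was 0.20 (SE 0.33, edgeR adjusted p = 0.864) and without it -0.035. Neither the interaction, 0.39 (SE 0.39, edgeR adjusted p = 0.71), nor the difference between control females and control males, -0.10 (SE 0.33, adjusted p = 0.867), passed the test. Without that liver they were 0.62 (edgeR adjusted p = 0.343) and -0.34 (adjusted p = 0.298).

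None of the 3 SLC27 transport proteins was called between LKO and control in either sex. Slc27a1, which encodes FATP1, a form better known from muscle and adipose tissue, was the lowest member in males (ENSMUSG00000031808, chromosome 8, 72021526 to 72039946, plus strand). It ran from 20.6 to 32.5 CPM in LKO females (median 29.0) and from 14.04 to 28.5 CPM in control females (median 16.2), and 2 control livers reached into the LKO range. That is 0.54 on the log2 scale (SE 0.18, edgeR adjusted p = 0.151). Among 22 alternatives its adjusted p lay between 0.042 and 0.304, and 2 of them brought it under 0.05, one being the fit without control female replicate 3. Male means were 11.95 ± 2.32 CPM with LKO (SD, n = 6) and 11.8 ± 3.93 CPM without (SD, n = 5), and the log2 fold change was 0.0043 (SE 0.22, edgeR adjusted p = 0.995). The lowest control, 5.54 CPM, was replicate 4, without which the male value was -0.17. The interaction was 0.53 (SE 0.30, edgeR adjusted p = 0.458).

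Slc27a2 encodes FATP2, the main transport protein of the family in liver beside FATP5 (ENSMUSG00000027359, chromosome 2, 126394327 to 126430163, plus strand). It was 1542 ± 160 CPM in LKO females and 1333 ± 229 CPM in control females (SD, n = 6 each), and 1299 ± 303 CPM in LKO males against 1181 ± 121 CPM in control males. The log2 fold changes were 0.21 (SE 0.12, edgeR adjusted p = 0.407) in females and 0.14 (SE 0.15, adjusted p = 0.765) in males, and the groups overlapped in both sexes. In control females 3 livers were at 1120 to 1134 CPM and the other 3 at 1458 to 1582 CPM.

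Slc27a4, which encodes FATP4, had nearly equal means in LKO and control livers of each sex (ENSMUSG00000059316, chromosome 2, 29692646 to 29707534, plus strand). It was 50.5 ± 5.86 CPM in LKO and 48.4 ± 5.94 CPM in control females, and 62.9 ± 3.89 CPM in LKO and 62.0 ± 8.40 CPM in control males. The log2 fold changes were 0.057 (SE 0.094, edgeR adjusted p = 0.831) and 0.019 (SE 0.095, adjusted p = 0.958). Control male replicate 4 was the lowest control male, at 47.5 CPM. Without it the control male mean was 65.6 ± 2.53 CPM (SD, n = 4) and the male value was -0.064.

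Fabp1, the liver fatty acid binding protein, was the most abundant member by far (ENSMUSG00000054422, chromosome 6, 71176811 to 71182007, plus strand). In males it was 4912, 5446, 4883, 5760 and 7021 CPM in the 5 controls and ran from 3712 to 4921 CPM with a median of 4636 CPM in the 6 LKO livers. In 5 of 6 LKO males Fabp1 was below every control, and the LKO mean was 81.2 percent of control. The test gave -0.30 on the log2 scale (SE 0.12, edgeR adjusted p = 0.324). In females the mean was 4185 ± 818 CPM in LKO and 3672 ± 955 CPM in control livers (SD, n = 6 each), and the log2 fold change was 0.19 (SE 0.18, edgeR adjusted p = 0.681). The estimates had opposite signs, and the interaction, 0.49 (SE 0.23, unadjusted p = 0.0439, edgeR adjusted p = 0.374), did not pass.

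Fabp2, the intestinal form of the family, was the third highest member in every group on the FPKM scale (ENSMUSG00000023057, chromosome 3, 122688721 to 122693155, plus strand). It ran from 167 to 270.4 CPM with a median of 229 CPM in LKO females and from 120.4 to 198 CPM with a median of 155 CPM in control females. In 5 of 6 LKO females it was above every control, with the sixth inside the control range. The mean was 146 percent of control. Fabp2 had a log2 fold change of 0.54 in females (SE 0.13, edgeR adjusted p = 0.0592), which missed the threshold narrowly. The adjusted p was under 0.05 in 7 of 22 alternatives, over a range of 0.008 to 0.136. The authors' deposited table gave 0.54 with an adjusted p of 0.00786, nearly that of DESeq2, which is already among these 7.

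In males Fabp2 was 223, 258, 186, 210 and 240.1 CPM in controls and 182 to 263 CPM in LKO livers, with a log2 fold change at -0.066 (SE 0.12, edgeR adjusted p = 0.873). Its interaction of 0.61 (SE 0.18, unadjusted p = 0.00304) had the lowest p among the members, with an edgeR adjusted p of 0.208. Enterocyte markers were nearly absent: 7 of 8 were unlisted or had at most 10 counts in every liver, and their summed level reached 0.82 CPM in any liver, far below that of Fabp2.

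Fabp4, the adipocyte and macrophage form, was 11.1 to 26.5 CPM in LKO females (median 14.3) and 8.08 to 14.5 CPM in control females (median 12.5) (ENSMUSG00000062515, chromosome 3, 10269148 to 10273636, minus strand). The groups overlapped, and 2 LKO livers, at 23.3 and 26.5 CPM, carried the upper end. The log2 fold change was 0.55 (SE 0.21, edgeR adjusted p = 0.22). In males it was 24.9 ± 9.75 CPM in LKO and 24.5 ± 9.54 CPM in control livers. Its log2 fold change there, 0.019 (SE 0.30, edgeR adjusted p = 0.987), turned to -0.14 without control male replicate 4. The macrophage and adipocyte markers given with Lpl apply here too, and their part was not tested.

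Fabp5, the epidermal form that macrophages also express, was the only member with a lower estimate in both sexes (ENSMUSG00000027533, chromosome 3, 10077608 to 10081667, plus strand). In males it was 40.2, 24.3, 38.5, 27.2 and 39.5 CPM in controls and 25.7, 11.05, 15.9, 15.3, 6.25 and 19.6 CPM in LKO livers. In 5 of 6 LKO males Fabp5 was below every control, and the mean was 46.1 percent of control. On the log2 scale this was -1.12 (SE 0.28, unadjusted p = 0.00125, edgeR adjusted p = 0.245), and DESeq2 alone among the alternatives gave an adjusted p under 0.05. The authors' deposited table gave -1.13 with an adjusted p of 0.0133, nearly that of DESeq2.

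In females Fabp5 was 42.9, 175, 15.7, 48.8, 35.8 and 42.2 CPM in controls and 8.71 to 43.8 CPM with a median of 26.7 CPM in LKO livers. The value of 175 CPM belonged to control female replicate 2, which set much of the difference: the control mean was 60.1 ± 57.5 CPM with it (SD, n = 6) and 37.1 ± 12.8 CPM without it (SD, n = 5). Likewise the log2 fold change was -1.08 (SE 0.48, edgeR adjusted p = 0.296) with that liver and -0.38 without it. Fabp5 lies near Fabp4 on chromosome 3, and members of the family resemble one another in sequence. How reads that fit several copies were counted is not given in the sources used here.

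Acsl1, the main long-chain acyl-CoA synthetase of the liver, was 541 ± 115 CPM in control males (SD, n = 5), 697 ± 175 in LKO males, 615 ± 109 in control females and 672 ± 127 CPM in LKO females (SD, n = 6 each) (ENSMUSG00000018796, chromosome 8, 46924074 to 46989088, plus strand). The groups overlapped in both sexes. The log2 fold changes were 0.36 (SE 0.18, edgeR adjusted p = 0.44) in males and 0.13 (SE 0.14, adjusted p = 0.72) in females. It was the only member whose log2 fold change, taken with its sign, was higher in males than in females. The interaction was -0.24 (SE 0.24, edgeR adjusted p = 0.715).

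No member passed the test of a difference between the female and the male effect of genotype. edgeR called 0 of 10 members there and 0 of 14503 genes in all, a background of 0 percent. DESeq2 called none of the members and 88 genes. At an unadjusted p under 0.05 there were 2 of 10 members, Fabp2 and Fabp1, against 12.9 percent of all genes. The estimate was above 0 for 9 of 10 members, with a median of 0.44 against 0.0075 over all genes.

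More members were called between the control livers of the 2 sexes than between genotypes. The same held over all genes, with 18 percent called, against 1.42 percent between genotypes in females and 0.00724 percent in males. Each sex is 1 deposited table, and handling that differed between tables cannot be told apart from sex. By edgeR 4 of 10 members were called, all lower in control females, against 9.2 percent of genes called lower and 18 percent called in either direction. For Fabp4 the mean of control females was 47.3 percent of that of control males, or -1.08 on the log2 scale (SE 0.23, edgeR adjusted p = 0.00687). The same difference was -0.61 for Fabp1 (SE 0.18, edgeR adjusted p = 0.0339). Every control female, at 2327 to 4678 CPM, was below every control male, 1 of 10 members against 5.17 percent of genes. It was -0.52 for Fabp2 (SE 0.13, edgeR adjusted p = 0.0136) and -0.36 for Slc27a4 (SE 0.11, edgeR adjusted p = 0.039).

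The call of Fabp4 held under all 18 alternatives and that of Fabp2 under 17. The calls of Fabp1 and Slc27a4 were weaker, lost in 5 and 12 of the 18. Slc27a1 stood the other way, at 18.8 ± 5.85 CPM in control females (SD, n = 6) and 11.8 ± 3.93 CPM in control males (SD, n = 5), a log2 difference of 0.66 (SE 0.25, edgeR adjusted p = 0.0824). The marker sums also differed between these groups. Hepatocyte markers summed to a median of 103439 CPM in control females and 74697 CPM in control males, and adipocyte markers to 1609 and 2345 CPM. The adipocyte sum largely follows Car3, the marker of that list with the most counts. Macrophage and Kupffer cell markers summed to a median of 1002 CPM in control females and 733 CPM in control males. Their part in the differences was not tested.

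Of 67 other genes of the same route, 62 were listed and 55 were tested in females. There 7 were higher and 6 lower at an unadjusted p under 0.05, against 15.6 percent of all genes in either direction. By the adjusted p 1 was called, lower, or 1.818 percent against 1.42 percent of all genes, with a median log2 fold change of -0.023. That gene was Acss2, which makes acetyl-CoA from acetate and is a target of SREBP factors. It was 58.4 ± 13.3 CPM in LKO and 183 ± 161 CPM in control females (SD, n = 6 each), and its log2 fold change was -1.65 (SE 0.38, edgeR adjusted p = 0.0487). Control female replicate 2, the liver with the high Fabp5, also had the highest Acss2, 505 CPM. Without it the fold change was -1.02 (edgeR adjusted p = 0.0215), and the call was lost in 14 of 22 alternatives. In males 53 were tested and edgeR called none, with 1 higher and 7 lower at an unadjusted p under 0.05, against 12.5 percent of all genes in either direction.

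Among the transport proteins and acyl-CoA synthetases of long chains, 7 were tested in each sex and none was called. The lowest p was that of Acsf3, a mitochondrial malonyl-CoA synthetase, in females at 0.25 (edgeR adjusted p = 0.0729) and of Acsl5 in males at -0.20 (adjusted p = 0.597). Of the 7 genes of fatty acid and acyl-CoA binding, none was called in either sex, with Fabp7 at 0.52 in females (edgeR adjusted p = 0.0869) and Acbd6 at -0.35 in males (adjusted p = 0.25). None of the 14 genes that control lipoprotein lipase or encode related lipases was called. The lowest p there was that of Lipc, hepatic lipase, in females at -0.42 (edgeR adjusted p = 0.121), and of Apoc3, an inhibitor of triglyceride clearance, in males at -0.29 (adjusted p = 0.367).

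Among the other uptake proteins and receptors, none of 8 was called in females and none of 7 in males. Cav1, a caveolae protein, had the lowest p in both sexes, at 0.43 in females (edgeR adjusted p = 0.564) and -0.49 in males (adjusted p = 0.494). None of the 13 transcription factors was called in either sex. Hnf4a was at -0.27 in females (edgeR adjusted p = 0.35) and Cebpa at -0.28 in males (adjusted p = 0.274). Of the medium- and short-chain synthetases, Acss3 had the lowest p in males, at 0.74 (edgeR adjusted p = 0.408).

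Between control females and control males 14 of 53 tested genes of the route were called, or 26.415 percent against 18 percent of all genes. Higher in control females were the nuclear receptors Nr1i3 (CAR) by 1.30 on the log2 scale, Nr1i2 (PXR) by 0.37 and Hnf4a by 0.43, the aryl hydrocarbon receptor Ahr by 0.79, and the receptor Vldlr by 1.47. Also higher were Acss3, by 1.61, and Lipc, by 0.69. Vldlr and Acss3 were near the floor in control males, with 3 to 80 and 7 to 42 counts per liver. The call of Hnf4a was lost in 11 of 18 alternatives and those of Ahr and Nr1i2 in 3 each. Lower in control females were the binding proteins Scp2, at -0.69, Dbi, at -0.53, and Acbd4, at -0.41. The synthetases Acsf2 at -0.54 and Acsf3 at -0.41 and the lipase maturation factor Lmf1 at -0.41 were lower too. Of the 7 genes of fatty acid and acyl-CoA binding tested there, 3 were called lower, against 9.2 percent of all genes. Their estimates were above 0 for 3 and below 0 for 4, with a median of -0.050. Among the members that bind fatty acids, Fabp1, Fabp2 and Fabp4 were called lower in control females. Fabp5 was at 0.82 (SE 0.47, edgeR adjusted p = 0.239), and at 0.13 without control female replicate 2.

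The members did not vary as 1 block from liver to liver. With the mean of each group removed, 45 pairs were compared over 23 livers by a permutation test within groups with 100000 resamples, adjusted over the 45. In 6 pairs the adjusted p for Pearson's r was under 0.05, all positive. Slc27a2 and Acsl1 were closest, with r = 0.81 and rho = 0.78 (permutation p = 4e-05 for r, adjusted p = 0.0018), r = 0.76 without the 2 livers farthest from the median, and r = 0.85 in females and 0.78 in males. Fabp1 and Acsl1 had r = 0.67 and rho = 0.67 (permutation p = 0.00021, adjusted p = 0.00472), and 0.60 without the 2 farthest. Fabp1 and Fabp2 had r = 0.68 and rho = 0.58 (permutation p = 0.00203, adjusted p = 0.0228), with an adjusted p of 0.06 for rho. Without the 2 farthest livers r was 0.57. In females it was 0.77 and in males 0.45, and neither passed (permutation test adjusted over 90 pairs by sex, p = 0.116 and 0.481).

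The other 3 pairs joined uptake genes, and none of them passed without control male replicate 4. Cd36 and Slc27a1 had r = 0.74 and rho = 0.66 (permutation p = 0.00142, adjusted p = 0.0213), and 0.59 without the 2 farthest livers. It was 0.63 in females and 0.83 in males, where it was 0.35 without the 2 farthest. Slc27a1 and Slc27a4 had r = 0.70 and rho = 0.56 (permutation p = 0.00379, adjusted p = 0.0292), with an adjusted p of 0.0877 for rho, and r was 0.54 in females and 0.88 in males. Cd36 and Slc27a4 had r = 0.68 and rho = 0.60 (permutation p = 0.00389, adjusted p = 0.0292), and 0.46 without the 2 farthest. It was 0.46 in females and 0.89 in males, where it was 0.23 without the 2 farthest. Within a sex none of these pairs had an adjusted p under 0.05. Control male replicate 4 was the lowest control male for all 3 genes. Without it r was 0.54 for Cd36 with Slc27a1, 0.46 for Cd36 with Slc27a4 and 0.54 for Slc27a1 with Slc27a4 (permutation p from 0.0268 to 0.034, adjusted p = 0.139 for each), whereas the first 3 pairs still passed. None of these pairs held Lpl, whose lowest r was -0.50, with Acsl1 (permutation p = 0.0242, adjusted p = 0.136).

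**Figure D4:**
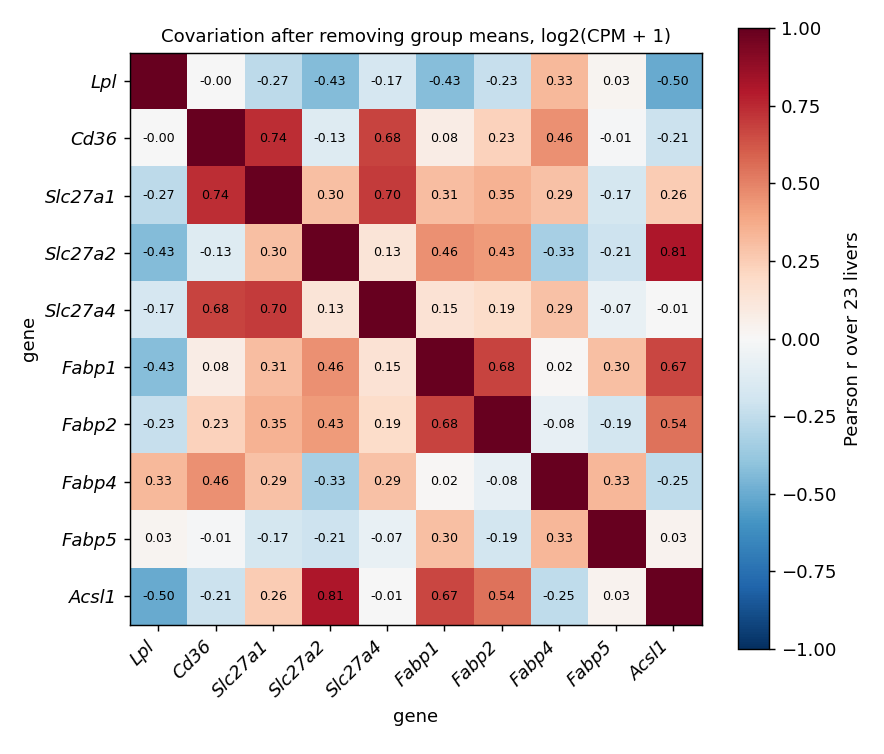
Pearson r between each pair of genes over 23 livers, after removing group means from log2(CPM + 1), with red for positive and blue for negative r. The largest values join Slc27a2 with Acsl1 (0.81) and Cd36 with Slc27a1 (0.74), and Lpl has its most negative value with Acsl1 (-0.50).

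Within females Lpl was inversely related to an uptake gene, Slc27a1, a split by sex examined after the pooled values were seen. Over the 12 females, with group means removed, Lpl and Slc27a1 had r = -0.86 and rho = -0.80 (permutation p = 0.00012 for r, adjusted over 90 pairs by sex p = 0.0108), and -0.78 without the 2 farthest livers. The sign was the same in controls, r = -0.95, and in LKO livers, r = -0.86 (6 livers each). Lpl and Cd36 had r = -0.85 and rho = -0.91 in females (permutation p = 0.0374, adjusted p = 0.278), with r = -0.88 in controls and -0.23 in LKO livers. In control females the pattern can be read from single livers. Lpl was 46.4, 26.4, 18.8, 24.7, 41.7 and 40.9 CPM in replicates 1 to 6, where Slc27a1 was 14.7, 17.8, 28.5, 23.2, 14.7 and 14.04 CPM and Cd36 was 76.0, 136, 138, 104, 58.0 and 78.8 CPM. The 3 livers highest in Lpl were the 3 lowest in both uptake genes. All 3 genes had higher means in LKO than in control females, so the relation within groups and the difference of the group means had opposite signs. In the 11 males Lpl had r = 0.16 with Slc27a1 (permutation p = 0.759, adjusted p = 0.898) and r = 0.34 with Cd36 (permutation p = 0.438, adjusted p = 0.68). The difference between the sexes in these correlations was not tested.

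For each member called in any comparison, the 3 genes with the most similar pattern were taken from 12790 genes, by Pearson's r over the 23 livers with group means removed. No p is given, since they are the highest of so many. Nearest to Lpl were Niban1 (r = 0.81), Sema4d (0.78) and Fhl3 (0.78). Nearest to Fabp2 were Suclg1 (0.87), Eci1 (0.81) and Acy3 (0.80), of which Suclg1 encodes a subunit of a citric acid cycle enzyme and Eci1 an isomerase of mitochondrial fatty acid oxidation. Nearest to Fabp1 were Tlcd2 (0.81), Abcd3 (0.81), a peroxisomal transporter, and Sar1b (0.81), a GTPase of vesicle transport. Nearest to Fabp4 were Myo1c (0.86), Col6a2 (0.86), a collagen chain, and F2r (0.84), and to Slc27a4 Cntnap1 (0.91), Cdc42bpg (0.89) and Vav2 (0.89).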

How the data were processed

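Liver mRNA was sequenced from 23 samples in 4 groups. Reads were aligned with HISAT2 2.0.5 to mm39, per the submitters' processing notes. The counter, annotation and differential test are not given in the sources used here, though the deposited adjusted p-values nearly equal those of DESeq2 here. The authors deposited 1 table per sex, with raw read counts per gene, FPKM values, a normalized signal (counts over a size factor), and log2 fold changes with p-values and adjusted p-values. No sample column was left unmapped. The labels number the replicates without stating that each is a separate animal, so p-values measure the spread between these samples.

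The counts were tested with edgeR 4.0.16 in R 4.3.3 (filterByExpr, TMM, quasi-likelihood test, Benjamini-Hochberg over all genes tested, called under 0.05). LKO and control were fitted within each sex. The interaction and the mean effect over both sexes used all 23 samples, and control females against control males used 11 samples, over genes in both tables. The printed CPM are counts over the total count and a TMM factor set over all 23 samples. edgeR gives no SE in this test, so each printed SE is the absolute log2 fold change over the square root of the F statistic. Correlations and permutation tests used log2(CPM + 1). The results were recomputed with RLE factors, with library size only, without a filter, with a minimum of 10 counts per sample, with DESeq2 1.42.0 (Wald test), with limma 3.58.1 on log2(FPKM + 1) or log2(FPKM + 0.1), voom with sample quality weights, a replicate block, a fit of all 23 samples, and leaving out each sample. Correlations within each sex and without control male replicate 4 were added after the data were seen. The edgeR script was tested on simulated data.

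The members, pathway lists and marker lists were chosen with earlier results of these data known. Named genes are the 10 members, Cpt1a, every called gene and the gene with the lowest p per sex in each pathway list, and the 3 most similar genes of mean CPM at least 1 for each called member. Of the called pathway genes, 1 is not reported here. The markers Gpnmb and Trem2 and the adipocyte markers were named after their values were seen. The lowest count of a member in any library was 69, for Slc27a1.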

Additional observations from a re-analysis of the deposited data

Results flagged for a closer look

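Of 44 groups of values examined for an outlying sample (11 genes in 4 groups), 4 held one, and chance flags about 1 in 20 groups. Fabp5 in control female replicate 2 was 175 CPM, far above the next control female at 48.8 CPM, with the lowest at 15.7 CPM. Slc27a4 in control male replicate 4 was 47.5 CPM, below the next at 62.6 CPM, with the highest at 68.7 CPM. Fabp1 in LKO male replicate 2 was 3712 CPM, below the next at 4547 CPM, with the highest at 4921 CPM. Slc27a1 in LKO male replicate 5 was 16.5 CPM, above the next at 12.1 CPM, with the lowest at 9.81 CPM. No member passed the test of a difference between the sexes in the effect of genotype.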

How the results depend on the processing

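The call of Lpl in females held under every alternative run for it. Genes called in LKO females numbered 194, and 554 by DESeq2, 316 by voom, 334 with a replicate block and 94 in the fit of all 23 samples. The members called there, 1, became 2 with library size alone, 3 with DESeq2, 2 with voom, 4 with the block and 2 in the fit of 23. In males the 1 gene called became 2 with library size alone, 2 with no filter, 3 with at least 10 counts, 106 with DESeq2, 2 with the block and 5 in the fit of 23, and DESeq2 called 1 member, Fabp5. DESeq2 called 88 genes in the interaction, where edgeR called 0. For the mean effect over both sexes 79 genes became 320 with DESeq2 and 46 with the block, and DESeq2 called 2 members, Fabp5 and Lpl. Between control females and control males the block left 999 of 2466 genes and 1 of 4 members. In females the block added Cd36, Fabp2 and Slc27a1. Labels state no pairing by number, and the numbers were not taken to pair samples because not every correlation between deviations of same-numbered livers was above 0.1. They ran from -0.0068 to 0.20 in females, where 5 of 6 were above it, and from -0.39 to 0.42 in males. As a hint from the data, 4 of 6 female and 1 of 5 male numbers correlated best with themselves.

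Leaving out 1 sample moved the genes called in females over 87 to 233 (lowest without control female replicate 5), the members over 1 to 3, and the genes called in males over 1 to 2, with 0 to 0 members. The interaction gave 0 to 17 genes, 17 of them without control male replicate 4. Control females against control males gave 1766 to 2947 genes and 2 to 4 members. The mean effect gave 30 to 206 genes (30 without control female replicate 5, 206 without LKO female replicate 1) and 0 to 2 members. Signs turned only where the estimate was at most 0.20. In males voom gave Slc27a1 -0.059, Slc27a4 -0.0018 and Fabp4 -0.085, and the block gave Slc27a1 -0.044. Between control sexes the block gave Cd36 0.12. Without 1 sample, values in males ran from -0.035 to 0.35 for Cd36, -0.14 to 0.26 for Fabp4, -0.17 to 0.11 for Slc27a1 and -0.064 to 0.070 for Slc27a4. The interaction ran from -0.16 to 0.74 for Fabp5, -0.0020 to 0.18 for Slc27a2 and -0.011 to 0.11 for Slc27a4, the mean effect from -0.0023 to 0.068 for Slc27a4, and control sexes from -0.34 to 0.022 for Cd36. The cause of these shifts was not tested. The FPKM alternative was not run between control females and control males, whose tables were normalized separately. It was run for the interaction and the mean effect, which also draw on both tables.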
